A study of Drosophila melanogaster with 6 samples.

Results

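Actin filaments in a cell are started by nucleators, fed by monomer-binding proteins, closed at their growing ends by capping protein and taken apart by severing proteins. The 10 genes described here encode parts of this cycle in Drosophila. They are the nucleators spir, capu and dia, the Arp2/3 complex subunits Arp2 and Arp3, the WAVE complex subunit Cyfip, the profilin gene chic, the cofilin gene tsr, and cpa and cpb, which encode the subunits of capping protein. They were chosen by gene name in the deposited lists of sites from miCLIP. This antibody method is used to map N6-methyladenosine (m6A), a methylated base of mRNA. Cyfip is listed under its older name Sra-1. The 10 genes held 142 of the 29142 listed sites, and they were 10 of the 3856 nuclear protein-coding genes with a site under their name.

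The sites came from miCLIP in S2R+ cells, a cultured fly line with features of blood cells, without any treatment. The 6 samples were 4 m6A antibody immunoprecipitations (IPs) of fragmented poly(A) RNA, 1 IP without crosslinking and 1 input of fragmented mRNA. Each listed value is combined by the authors over the IPs that share the site, so there is no spread between replicates, and no differences were tested. Only these combined values were used, and no site was set against the non-crosslinked IP or the input.

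In flies m6A is written by a nuclear methyltransferase complex and bound by YTH domain proteins. In miCLIP the antibody is crosslinked to the RNA, and the reverse transcriptase then either reads a C as T or stops, which gives C-to-T sites and truncation sites. A methylated A is often followed by C, so a truncation at A with a C-to-T site on the next nucleotide is the arrangement in which both readouts point to one A. Such a C-to-T site is called paired here. A truncation at T, C or G does not lie on an A, so a listed site is not by itself an m6A. No genome sequence was used here, so the bases around the sites are not shown, and the base at each truncation is the one the authors list.

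All 10 genes had a listed site, against 27.6% of the 13968 nuclear protein-coding genes of the annotation. A truncation was listed for all 10 genes, against 27.6% of genes, and a C-to-T site for 9, against 9.31%. A site can be listed only where the mRNA is expressed, and the lists hold no expression level. The genes were also chosen by name in these lists, with earlier results of these data known. Their having sites, and their counts of sites, therefore cannot be read as enrichment. There were 21 C-to-T sites and 121 truncations. The most sites were in chic (28), Arp3 (25), tsr (19) and cpb (13). dia had 11, spir, capu and Arp2 had 10 each, cpa had 9 and Cyfip had 7. Counts of 7 or more were reached by 8.61% of all genes. Set against the length of annotated exon, tsr was densest, with 23.1 exonic sites per kb. Arp3 had 11.6, chic 8.36, cpb 6.75, cpa 4.69 and Arp2 3.66 exonic sites per kb. The long mRNAs of dia (1.64), spir (1.54), Cyfip (1.51) and capu (0.801) had the lowest densities.

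**Figure D1:**
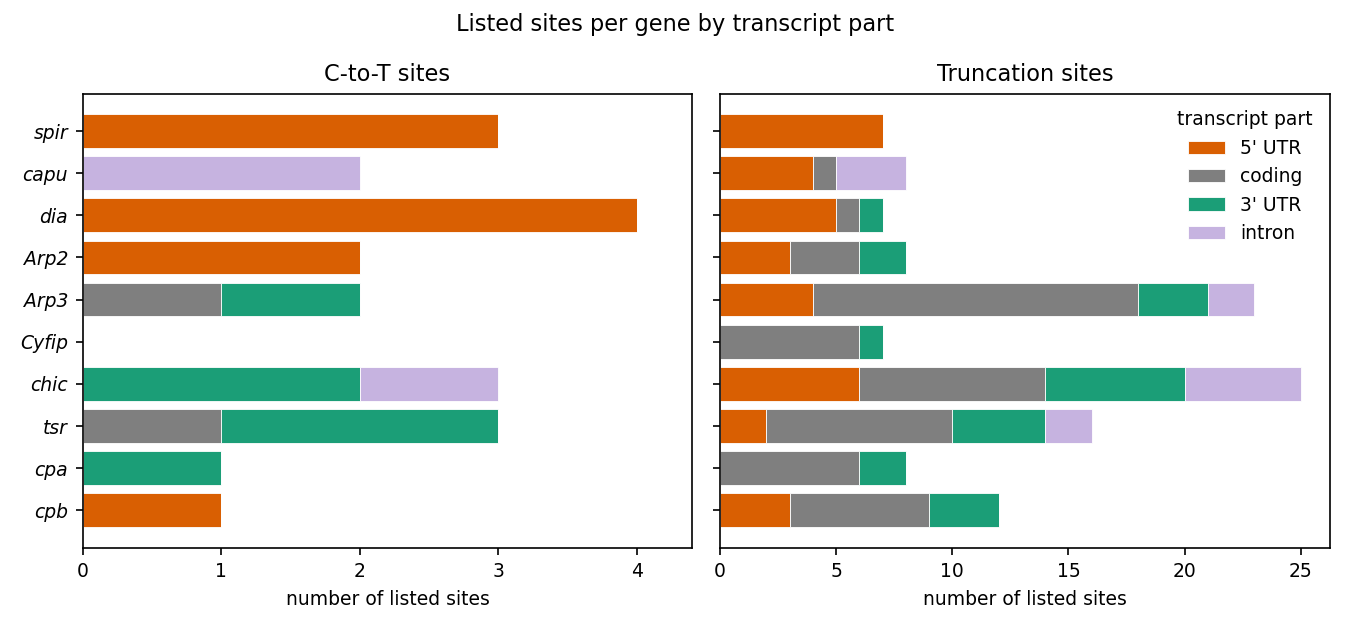
Number of listed C-to-T sites (left) and truncation sites (right) per gene, coloured by transcript part. The 7 truncations of spir all lie in the 5' UTR, while Cyfip and cpa have none there and 14 of the 23 of Arp3 lie in coding sequence.

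By transcript part, 5' UTRs held 10 of the 18 C-to-T sites in exons of these genes (55.6%, 95% Wilson interval 33.7% to 75.4%), against 62.3% of the exonic sites in the whole C-to-T list. They lay 62 to 516 nt before the start codon, with a median of 243 nt. None of the 3 C-to-T sites found in 4 IPs was in a 5' UTR, and of those given by 3 aligners 33.3% of the exonic ones were. Another 6 lay in 3' UTRs (33.3%, interval 16.3% to 56.3%), against 10.7% of all, and 2 in coding sequence (11.1%), against 27% of all. The 3' UTR sites included 2 close neighbours in chic and 2 in tsr. With C-to-T sites within 5 nt of each other merged, 16 exonic ones were left, 62.5% of them in 5' UTRs. Of the 109 exonic truncations, 34 were in 5' UTRs (31.2%, against 40% of all), 53 in coding sequence (48.6%, against 46.1%) and 22 in 3' UTRs (20.2%, against 13.9%). Among the exonic truncations found in 4 IPs, 52% were in 5' UTRs. Shares over all sites were not recomputed for 4 IPs, 3 aligners or merged sites, so these shares are not to be set against them. The plot of sites per gene shows how unevenly the genes share these counts. The intervals cover counting error only, and sites of 1 mRNA are not independent.

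A was the base at 58 of the 121 truncations (47.9%, interval 39.2% to 56.8%), against 51.9% of all truncations. T followed with 46 (38.0%, against 32.5%), then C with 11 (9.09%, against 7.49%) and G with 6 (4.96%, against 8.14%). The base differed by transcript part, as it did in the whole list. A held 28 of 34 truncations in 5' UTRs (82.4%, against 73.3% of all in 5' UTRs), 14 of 53 in coding sequence (26.4%, against 37.4%) and 7 of 22 in 3' UTRs (31.8%, against 39.8%). T held 28 of 53 in coding sequence (52.8%, against 41.1%) and 13 of 22 in 3' UTRs (59.1%, against 50.2%). In 5' UTRs T held 4 of 34 (11.8%, against 19.6%). Without the sequence, no share could be set against how often each base occurs in a part.

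**Figure D2:**
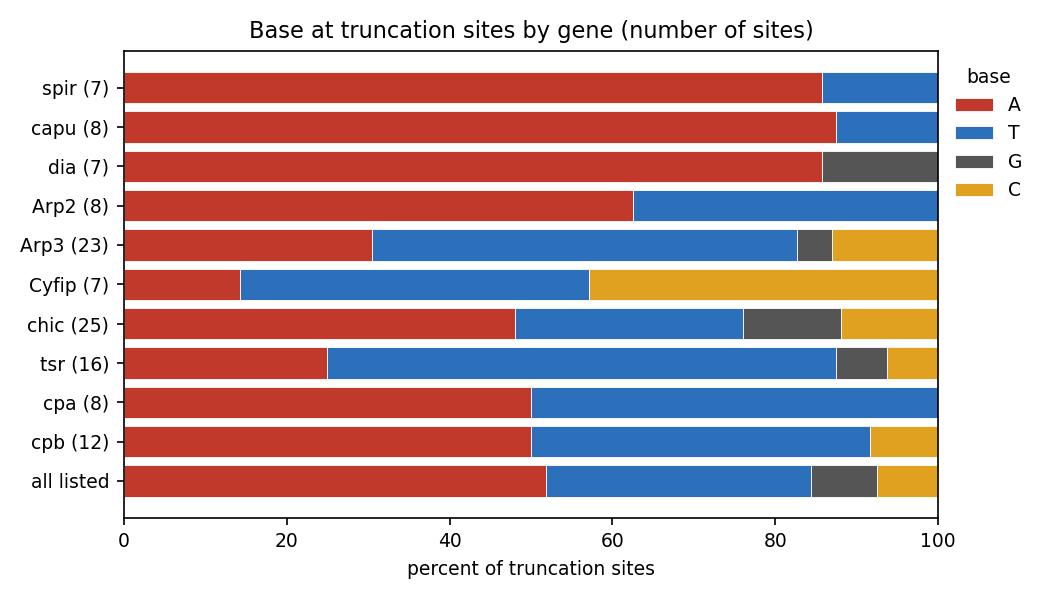
Base at the truncation sites of each gene, in percent of its sites, with the number of sites in brackets and all listed truncations in the lowest bar. A takes 87.5% in capu and 85.7% in spir and in dia, 14.3% in Cyfip, and 51.9% in the whole list.

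The genes differed in their share of A, as the plot of bases by gene shows. It was 7 of 8 in capu (87.5%), 6 of 7 in spir and in dia (85.7% each) and 5 of 8 in Arp2 (62.5%). It was 50% in cpa and cpb, 48% in chic, 30.4% in Arp3, 25% in tsr and 14.3% in Cyfip. A thus held more than 50% of the truncations in 4 of the 10 genes, against 46.8% of all genes with at least 7 truncations.

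Of the 21 C-to-T sites 10 were paired (47.6%, interval 28.3% to 67.6%), against 35.1% of all C-to-T sites. dia had 4 pairs, capu and Arp2 had 2 each, and spir and chic had 1 each. A pair was present in 5 of the 9 genes with a C-to-T site, against 71.9% of all such genes. In 5' UTRs 7 of 10 C-to-T sites were paired (70%, against 49.1% of all there), and the other 3 pairs lay in annotated introns of capu and chic. None of the 2 C-to-T sites in coding sequence and none of the 6 in 3' UTRs was paired, against 6.34% and 19.7% of all sites in those parts. Among the 3 C-to-T sites found in 4 IPs none was paired, and with both lists held to sites given by 3 aligners 1 of 7 was (14.3%). With a wider window, 12 of the 21 had some truncation within 3 nt (57.1%, against 47.4%). No share in 4 IPs was computed over all paired truncations. Of the upstream truncations of the 10 pairs, 7 were found in 4 IPs. Their heights ran from 11 to 39.5, with a median of 28, against 35.5 over all paired truncations. Unpaired truncations at A had a median height of 17 in these genes, against 13.7 over all.

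Conversion, the percent of unique tags that carry the C-to-T change, had a median of 4.51% over the 21 sites, from 1.60% to 9.34%, against 3.43% over all C-to-T sites. Coverage had a median of 139 unique tags, from 56.5 to 421.5, against 274. Converted tags had a median of 6.92, against 8.17. The fewest converted tags in the whole list were 3.5, so a site with few tags is listed only at a high conversion. The part of coverage in the difference in conversion was not tested. Conversion had a median of 5.003% at paired and 4.46% at unpaired sites of these genes, and their ranges overlapped; over the whole list the medians were 4.79% and 2.58%. Of the 21 sites 3 were found in 4 IPs (14.3%, against 34.6% of all), and 7 were given by all 3 aligners (33.3%, against 43%). The plot of conversion by site shows wide intervals at these tag numbers.

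**Figure D3:**
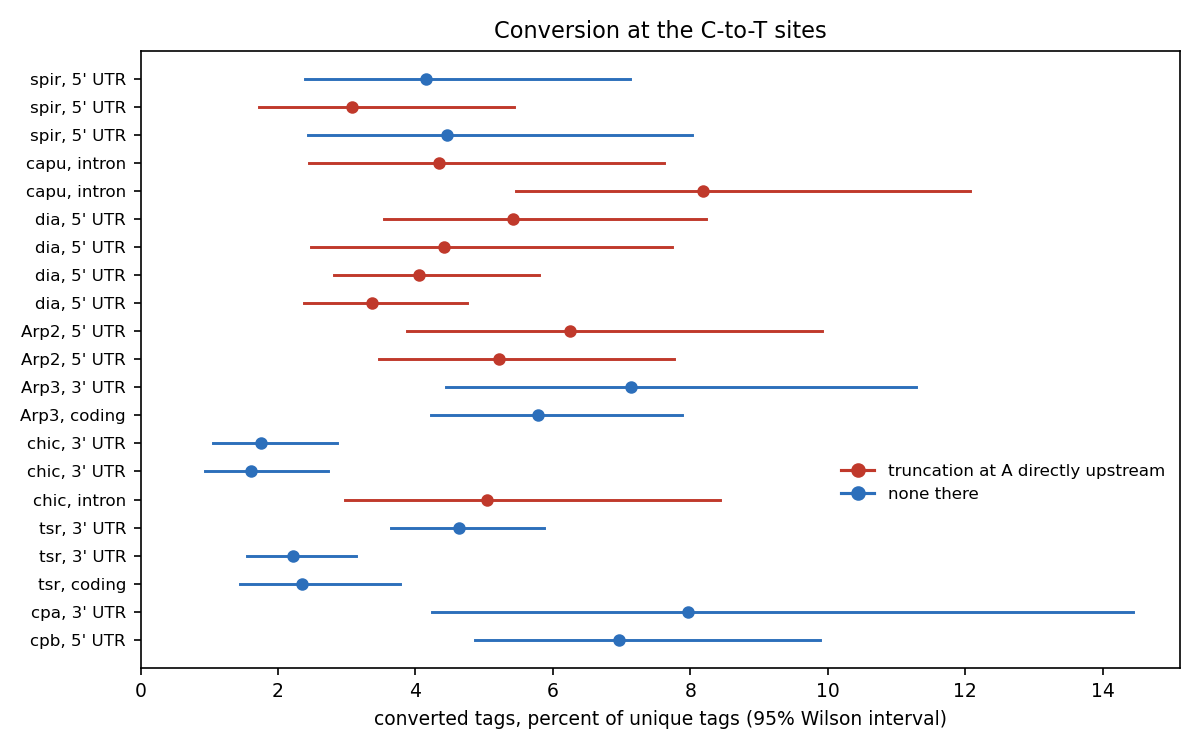
Converted tags as percent of unique tags at the 21 C-to-T sites, from tags summed over the IPs that share the site, with 95% Wilson intervals. Red points have a truncation at A directly upstream and blue points do not; the intervals of most sites overlap, and the lowest points are the 3' UTR sites of chic at 1.60% and 1.75%.

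Truncation strength is listed as a peak height beside a null height, both from the CTK toolkit. Height had a median of 18.4 in these genes, from 6.5 to 59.25, against 14.5 over all truncations. The null height had a median of 1.805, against 0.92. The ratio of height to null height therefore had a median of 10.3, against 16.8. At A the ratio had a median of 15.2, against 19.5 over all truncations at A, and at T of 8.73, against 13.8. The deposited legend does not say how heights from several IPs were joined into 1 value. Of the 121 truncations 31 were found in 4 IPs (25.6%, against 27.4%), 72 were given by 3 aligners (59.5%, against 56.2%) and 35 by 1 aligner (28.9%, against 26%). The plot of height against null height shows tall sites at both low and high null heights.

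**Figure D4:**
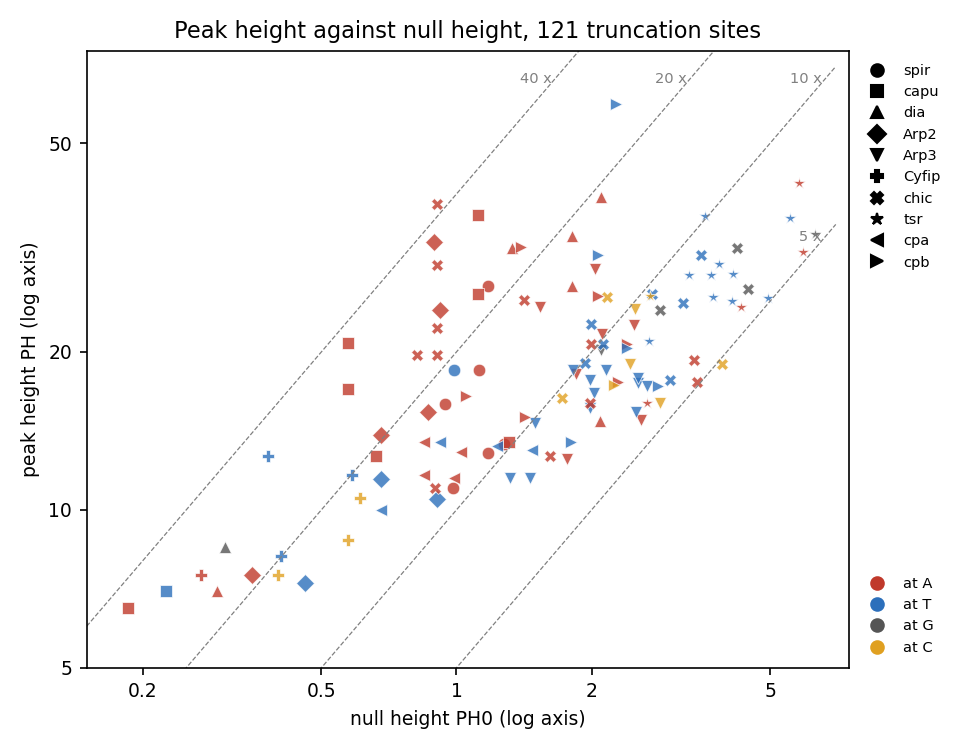
Peak height against null height of the 121 truncations on log axes, with a shape for each gene, a colour for each base and dashed lines of equal ratio. The tsr sites lie to the right at null heights from 2.66 to 6.31, and the 2 squares of capu at a null height of 0.574 have ratios of 36.3 and 29.6.

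**Figure D5:**
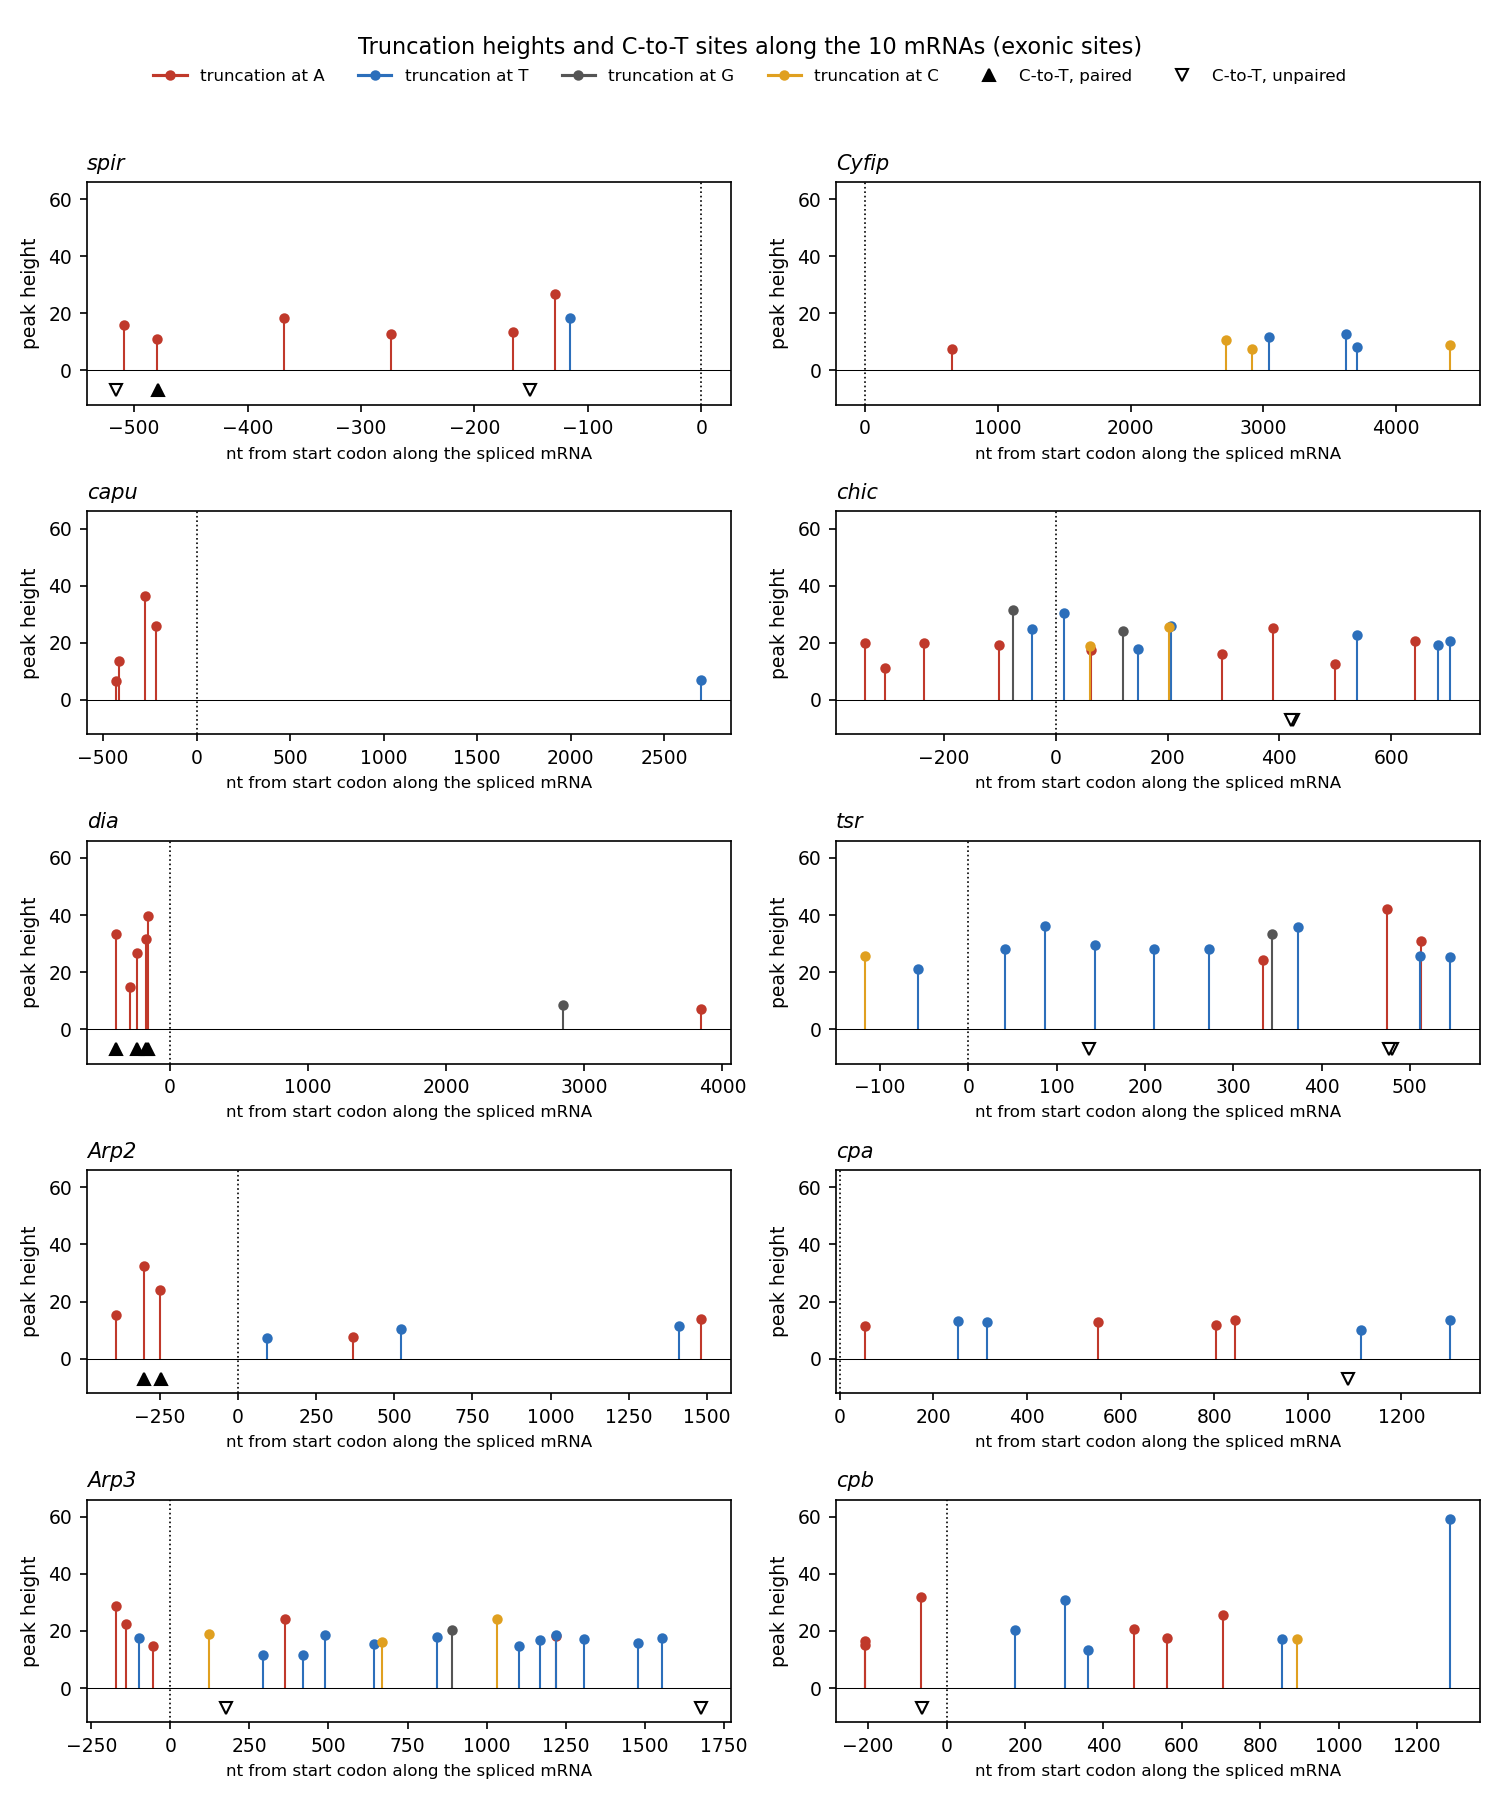
Exonic sites of the 10 genes by distance from the start codon (dotted line) of the transcript that holds the site, in nt of spliced mRNA. Stems give the peak height of truncations, coloured by base, and triangles are C-to-T sites, filled where paired. In dia and Arp2 the tall stems and filled triangles lie left of the start codon; in tsr and Arp3 stems run along the whole mRNA.

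The maps along the mRNAs show where in each gene the sites described next lie. Among the nucleators, the formin gene dia (2L, 20758144 to 20768053, plus strand, dm6) had the most pairs. Formins start and extend unbranched filaments. Its 4 C-to-T sites were all in exon 1 of 5, in the 5' UTR, at 20758276, 20758427, 20758492 and 20758505, which is 389, 238, 173 and 160 nt before the start codon. Each was paired. Conversion was 5.58%, 4.69%, 3.86% and 3.50% in this order, at 119, 123, 207 and 299.8 tags. The truncations at A directly upstream had heights of 33.25, 26.7, 31.5 and 39.5.

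Along these 4 sites of dia, conversion was lower where coverage was higher. Conversion is itself a percent of coverage, and converted tags were 6.67, 5.75, 8.06 and 10.5 in the same order. The intervals overlapped, with 20 of 369 summed tags converted at the first (3.54% to 8.22%) and 31 of 920 at the last (2.38% to 4.74%). The truncation at 20758491 was given by STAR alone, in 2 IPs. One more truncation at A lay in this exon, 288 nt before the start codon, with height 14.8. Elsewhere dia had 1 truncation at G in coding sequence (height 8.5) and 1 at A in the 3' UTR (height 7). All its 5' UTR sites lay in the first exon that begins at 20758144 and ends at 20758663, which belongs to 2 of its 5 isoforms. A shorter form of this exon, ending at 20758385 in 1 further isoform, holds 2 of the truncations at A and 1 of the C-to-T sites. The first exon at 20760300 to 20760457, of another 2 isoforms, held none. The transcript that the annotation marks as canonical does not hold the 5' UTR sites.

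In spir (2L, 20311219 to 20348386, plus strand), whose product Spire nucleates filaments and works with Capu in the fly oocyte, all 10 sites lay in the 5' UTR. They fell in a first exon used by 9 of 10 isoforms, 116 to 516 nt before the start codon. Of the 7 truncations 6 were at A, with heights of 15.9, 11, 18.4, 12.8, 13.3 and 26.7 from 5' to 3', and the truncation at T had height 18.5. The tallest was at 20311691, 129 nt before the start codon, in 2 IPs. The 1 paired C-to-T site, at 20311341, had 3.24% conversion at 177 tags, and its truncation was the lowest of the gene. The C-to-T site with the most converted tags was unpaired, at 20311304, with 6.5 of 144 tags (4.51%). The remaining one, at 20311669, had 4.46% at 112 tags and was given by BWA alone.

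In capu (2L, 3872646 to 3902860, minus strand), the gene of the formin Cappuccino, 8 of 10 sites lay in or up to 304 nt past 1 annotated first exon. This exon, 3895613 to 3896108, belongs to 1 of its 9 isoforms. Inside this exon were 3 truncations, all at A, with heights of 13.4, 36.5 and 25.75 from 5' to 3'. The tallest, at 3895875, was 278 nt before the start codon and found in 4 IPs. In the annotated intron, 77, 269 and 303 nt past the exon, were another 3 at A, with heights of 12.7, 17 and 20.8, each given by 3 aligners.

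The last of these intronic truncations in capu were directly followed by its 2 C-to-T sites. Conversion was 7.68% at 84.1 tags at 3895343, with 22 of 269 summed tags (5.46% to 12.1%). It was 4.39% at 126.5 tags at 3895309, which was given by BWA alone. The remaining sites of capu were low, a truncation at A in another first exon (height 6.5) and 1 at T in coding sequence (height 7).

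The Arp2/3 complex starts a new filament as a branch on an older one, and Arp2 and Arp3 are its actin-related subunits. Their sites were laid out differently. In Arp2 (X, 16548290 to 16553968, minus strand) both C-to-T sites were paired and fell in the 5' UTR, in exon 1 of 7. At 16553692, 301 nt before the start codon, conversion was 5.31% at 139 tags, beside a truncation of height 32.4, the tallest of the gene. At 16553639, 248 nt before the start codon, conversion was 6.50% at 128 tags, given by BWA alone, beside a truncation of height 24.1. Both truncations were found in 4 IPs, as was another 5' UTR truncation at A with height 15.4. The 5 truncations in the coding sequence and 3' UTR of Arp2 had heights from 7.25 to 13.9, below all 3 in the 5' UTR, and 3 of them were at T.

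In Arp3 (3L, 8113407 to 8115902, minus strand) neither C-to-T site was paired. The one with the most converted tags lay in coding sequence, in exon 2 of 6 at 8115456, with 6.33% conversion at 148.5 tags in 4 IPs. The aligners gave similar values there, 6.49% with Novoalign, 6.12% with STAR and 6.39% with BWA. The other, at 8113533, lay 423 nt past the stop codon in the 3' UTR. Its conversion of 9.34% at 92.2 tags, a mean over aligners, was the highest of the 21 sites, but ranged from 7.25% with STAR to 10.8% with BWA. From summed tags it was 16 of 224 (7.14%), below a site of capu (8.18%) and the site of cpa (7.96%).

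The 23 truncations of Arp3 had heights from 11.5 to 28.8, and 12 of them were at T. The 14 in coding sequence were at T in 8, at C in 3, at A in 2 and at G in 1. The tallest of the gene was at A, at 8115897, 6 nt into the mRNA, and was found in 4 IPs. The null height was higher in Arp3 than in Arp2 (median 2.09, against 0.770), and the ratio of height to null was lower (median 8.60, against 19.2).

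Cyfip (3R, 15333266 to 15338365, plus strand) encodes the WAVE complex subunit that binds Rac and, in flies as in mammals, the fragile X protein Fmr1, which the title of the study names. It had no C-to-T site. Its 7 truncations had heights from 7.5 to 12.7, the lowest maximum of the 10 genes, and none was found in 4 IPs. Of these 6 lay in coding sequence and 1 in the 3' UTR; 3 were at T, 3 at C and 1 at A. The tallest, at 15337425 in exon 8 of 9, was at T and given by Novoalign alone. The 3' UTR truncation at 15338269 also lies in an exon of a gene on the other strand, Nagk.

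The profilin gene chic (2L, 5972115 to 5981018, minus strand), whose product hands actin monomers to formins and growing filament ends, held both layouts. It has 6 isoforms with several first exons. In the stretch from the 3'-most of these first exons upstream there were 6 truncations, all at A, with heights of 19.75, 38.25, 22.25, 29.3, 19.75 and 11 from 5' to 3'. Of these 5 were found in 4 IPs. In the rest of the gene there were 19 truncations with heights from 12.7 to 31.5, of which 6 were at A and 2 were found in 4 IPs.

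Heights of chic in the first-exon stretch and in the rest of the gene overlapped, but null heights did not. They ran from 0.816 to 0.907 in the first-exon stretch and from 1.415 to 4.46 in the rest. The ratio of height to null had a median of 24.4 in the first-exon stretch and 8.44 in the rest. The division was chosen after these values were seen. The tallest truncation of chic, at 5980827, lay in this stretch, in an annotated intron 20 nt past a first exon.

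The 1 paired C-to-T site of chic, at 5980501, was also in this stretch, 20 nt before the annotated start of the first exon at 5980209 to 5980481. Its conversion was 5.39% at 126 tags, and its truncation had height 29.3. The other C-to-T sites lay in the 3' UTR, 44 and 41 nt past the stop codon at 5973533 and 5973536, with 1.87% at 421.5 tags and 1.60% at 405.5 tags. From summed tags the paired site had 13 of 258 converted (2.97% to 8.43%), and the unpaired ones had 15 of 859 (1.06% to 2.86%) and 13 of 811 (0.939% to 2.72%). The interval of the paired site did not overlap with the others, and these intervals cover counting error only. The unpaired sites lie so close together that they can share tags, and the difference was not tested. The converted tags were similar in number at the 3 sites, and it was the coverage that differed.

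In tsr (2R, 24044453 to 24046805, minus strand), the gene of the filament-severing protein cofilin, an mRNA of 735 nt carried 17 exonic sites. Its 16 truncations had heights from 16 to 42.1. Its null heights, from 2.66 to 6.31, had the highest median of the 10 genes (3.98), and its ratio of height to null the lowest (median 6.82). Of these truncations 10 were at T and 4 at A, and 6 of the 8 in coding sequence were at T. Unlike in dia and Arp2, neither 5' UTR truncation of tsr was at A.

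The 3 C-to-T sites of tsr were unpaired. The one at 24044570, 34 nt past the stop codon, had the most converted tags of the 21 sites, 15.03 of 332.7 (4.38%), and was found in 4 IPs. The site at 24044574, 4 nt upstream, had 2.17% at 324.5 tags, also in 4 IPs. From summed tags 64 of 1382 were converted at the first (3.64% to 5.87%) and 30 of 1357 at the second (1.55% to 3.14%). At about equal coverage the intervals did not overlap, but they cover counting error only. Sites 4 nt apart can share tags, and the difference was not tested. The tallest truncation of tsr, at A with height 42.1, lay 2 nt upstream of 24044574 and so did not count as a pair. The third site, in coding sequence at 24045048, had 2.41% at 305.5 tags.

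Capping protein is a heterodimer that closes the growing ends of filaments. In cpb (2L, 1704902 to 1706962, plus strand) 12 truncations had heights from 13.5 to 59.25. The tallest was the tallest of all 121, at T in the 3' UTR at 1706682, 455 nt past the stop codon. It was found in 4 IPs and given by 3 aligners, with a ratio to null of 26.2, and it ranked 1188th of the 22917 truncations by height. All 3 truncations in the 5' UTR of cpb were at A. Of these, 2 lay on adjacent nucleotides, 3 and 4 nt into the mRNA, each in 2 IPs and given by 1 aligner. The 6 in the coding sequence of cpb were at A in 3 and at T in 3. Its C-to-T site, at 1705050, lay 62 nt before the start codon with 6.59% conversion at 126.2 tags. A truncation at A of height 31.75 in 4 IPs lay 2 nt upstream of it, so this site was not paired either. A truncation exactly 2 nt upstream was present at 2 of the 21 sites (9.52%), those of cpb and tsr, against 7.86% of all C-to-T sites.

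In cpa (2R, 21057787 to 21059883, plus strand) the 8 truncations had heights from 10 to 13.5, a narrow range, with 4 at A and 4 at T. All 4 at A were in coding sequence, and none of the 8 was in the 5' UTR. The tallest were at A in coding sequence at 21059045 and at T in the 3' UTR at 21059506, both with height 13.5. Its C-to-T site, at 21059286 in the 3' UTR, had the lowest coverage and the fewest converted tags of the 21, 4.5 of 56.5, which gave 8.12% conversion. With 9 of 113 summed tags its interval, 4.25% to 14.4%, was the widest, and it was given by BWA alone.

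The genes can be set side by side by these layouts, in a grouping made after the values were seen and therefore given without a test. In spir, capu, dia and Arp2 24 of 30 truncations were at A (80%), 9 of 11 C-to-T sites were paired, and 5' UTRs held all 9 exonic C-to-T sites. In the other 6 genes 34 of 91 truncations were at A (37.4%), 1 of 10 C-to-T sites was paired, and 5' UTRs held 1 of 9 exonic C-to-T sites. Median peak heights were 15.1 in the first 4 genes and 19 in the other 6. Median null heights were 0.931 and 2.09, and median ratios of height to null 19.0 and 8.91, in the same order. Gene by gene the null heights of both sets overlapped. In the first 4 genes their medians were 0.618 (capu), 0.770 (Arp2), 1.12 (spir) and 1.805 (dia). In the other 6 they were 0.407 (Cyfip), 0.953 (cpa), 2.00 (chic), 2.09 (Arp3), 2.16 (cpb) and 3.98 (tsr). The part of the null height in the shares of A and of pairs was not tested.

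Outside annotated exons of nuclear protein-coding genes lay 3 of the 21 C-to-T sites (14.3%, against 5.3% of all). So did 12 of the 121 truncations (9.92%, against 14% of all). The authors label the same 15 sites as intron, a label that 2.84% of all C-to-T sites and 8.05% of all truncations carry. The wider shares of 5.3% and 14% also count sites in noncoding, mitochondrial or unassigned RNA, so they are not shares of introns. A was the base at 9 of the 12 truncations (75%). It was the base at 50.9% of all truncations in that wider set. The truncations split by aligner. The 6 given by 1 aligner, in Arp3, chic and tsr, lay 1 to 5 nt from the nearest exon. The 6 given by 3 aligners, in capu and chic, lay 20 to 303 nt away and were all at A. The exon nearest to each was an annotated first exon. All 3 intronic C-to-T sites were paired with truncations of this second kind. In addition, Arp3, chic and cpb each had 1 couple of truncations on adjacent nucleotides and tsr had 2, and in each of these 5 couples at least 1 of both positions was given by a single aligner.

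Other genes of actin assembly and turnover were looked up in a list of 29, chosen with earlier results of these data known. Of these 20 had a listed site, against 27.6% of all genes, and 10 had a C-to-T site, against 9.31%. A pair was present in 7 of the 10, against 71.9% of all genes with a C-to-T site. Of their 162 truncations 43.2% were at A, and of their 33 C-to-T sites 14 were paired (42.4%). The most sites were in capt, the gene of cyclase-associated protein (4 C-to-T and 28 truncations), the formin gene Frl (11 and 14, under the older name CG32138) and the kinase gene cdi (6 and 13). They were followed by coro, the coronin gene (0 and 18), and cib, which encodes a protein with thymosin beta repeats (1 and 16). In Frl and cdi the 5' UTR held every C-to-T site, as in dia and Arp2, with 2 of 11 and 5 of 6 paired. In coro 11 of 18 truncations were at T, and in cib 9 of 16. Of the genes of the other WAVE complex subunits, named after their values were seen, HSPC300 had 2 truncations and SCAR had 1, and Hem and Abi had no listed site.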

How the data were processed

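Poly(A) RNA of S2R+ cells was measured in 4 m6A IPs, 1 IP without crosslinking and 1 fragmented mRNA input. Whether each IP had a culture of its own is not in the labels. The submitters' processing notes name STAR 2.4.2a, BWA, Novoalign, Bowtie 1.1.2, cutadapt 1.8 and the build dm6, with no role. Per the deposited column legend, sites come from the CTK toolkit, each listed for the aligners Novoalign, STAR and BWA when shared by at least 2 IPs. Per the same legend, the deposited counts of tags at C-to-T sites, and their percent, are means over those IPs, and truncations have peak and null heights.

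A site's value here is the mean over the aligners that give it, and its number of IPs the highest over them. Deposited means times the number of IPs, for the aligner with the most IPs, came within 0.01 of whole tags at every C-to-T site of the 10 genes, and Wilson intervals used these totals. Depth elsewhere is unknown. Positions are 1-based; parts come from Ensembl release 115 (BDGP6.54), with 5' UTR before coding sequence before 3' UTR. Shares of all sites are over both whole lists.

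The members and gene lists were chosen with earlier results of these data known. Named sites are, for each gene, the C-to-T site with the most converted tags, the tallest truncation and every pair; other sites of these genes were described after their values were seen. Of the other actin genes, the 5 with the most sites were named by rule, and the WAVE complex genes after their values were seen. No test was made, since no value per IP is listed. Python 3.11.15, pandas 2.3.3 and scipy 1.17.1 were used; placement and pairing were tested on simulated sites. Alternatives covered IPs, aligners, site strength, merging, part labels, pair windows and leaving out chic.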

Additional observations from a re-analysis of the deposited data

How the results depend on the processing

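No paired analysis was possible because each listed value is combined over the IPs, and for the same reason no replicate could be left out. Of 48 recomputed values, 32 moved by less than their counting interval or within 1.5 times the reported count. Values over all listed sites were not recomputed under these choices, so the shares below are not to be set against them. The others came from stricter choices of sites, which leave fewer of them. With sites shared by all 4 IPs, 3 C-to-T and 31 truncation sites were left; 5' UTRs held 0 of the 3 C-to-T sites and 0 were paired, 52% of exonic truncations were in 5' UTRs, 61.3% of truncations were at A and the median height was 25.75. With sites given by all 3 aligners, 7 C-to-T and 72 truncation sites were left; 5' UTRs held 33.3% of exonic C-to-T sites, 14.3% were paired, 56.9% of truncations were at A and the median height was 20.75. With sites at or above the median strength of their list, 5 C-to-T sites were left, 20% of them paired, and the median height of truncations was 22.0. All 10 paired C-to-T sites were found in 2 or 3 IPs, and 2 of them were given by all 3 aligners. The 21 C-to-T sites and their low number of converted tags limit every share of them.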
